A study of Arabidopsis thaliana with 24 samples.

Results

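Petiole bases of plants whose leaf tip alone received extra far-red light were compared with petiole bases of touched plants, the mechanical control of local lighting. The 6 arrays were chosen by the treatment and tissue in their labels, 3 labelled Local FR and 3 labelled Touch, out of 24 in the series and 12 of petiole base. Arabidopsis thaliana plants 28 d old were treated for 5 h, in a day with 9 h of light at 20 °C and 140 µmol of photosynthetic light per square metre and second. In the local FR plants the ratio of red to far-red light (R:FR) was 0.05 at the leaf tip and 2.3 elsewhere, so the sampled petiole base was not the lit part. The touch plants stayed at an R:FR of 2.3, as did the untreated white-light controls, and in the whole FR plants the R:FR was 0.05 over the rosette. Tissue came from the fifth-youngest leaf, from the lowest 1.5 mm of its petiole and, for the leaf tip, from the top 2.5 mm of its lamina, with both ends cut from the same leaf. The labels state 3 independent biological replicates, and how the touch was applied and which accession was grown are not given in the sources used here.

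Plants read a low R:FR as the presence of neighbours through the phytochromes, which in low R:FR release PIF transcription factors from inhibition. PIFs raise auxin synthesis genes in the lamina, auxin moves to petiole and stem, and growth there follows the loosening and rebuilding of the cell wall. Handling a leaf can itself change expression, so a touched group serves as a reference for leaves lit locally.

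Transcript levels were read on Affymetrix arrays and are given as log2 robust multi-array average (RMA) signals. Across 17504 probe sets with a gene, arrays of the same group correlated at 0.989 to 0.991 and arrays of different groups at 0.981 to 0.988, as a description over probe sets that are not independent. On these 6 arrays the 5th percentile of signal was 0.81 to 0.87 and the 25th 1.12 to 1.20, so a log2 difference may understate the change of a gene with a level that low. The samples are pieces of tissue, in which fewer cells of a type and less RNA per cell cannot be told apart.

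Petiole bases under local FR had more transcript than touched ones of the expansin-like genes EXLA1 and EXLA2, the xyloglucan enzyme gene XTH16, the actin gene ACT11 and the shade and auxin response gene HAT2, by 3.00- to 4.06-fold. The gibberellin receptor gene GID1A, the autophagy gene ATG8F, the sugar transporter gene SFP1 and some glycosyltransferase genes had less. In limma 667 probe sets (3.81%) were called at an adjusted p below 0.05, 259 higher (1.48%) and 408 lower (2.33%), and 2578 (14.7%) had an unadjusted p below 0.05. Among those higher, 94 differed at least 2-fold, with a median log2 difference of 0.86 over the 259, and among those lower, 97 did, with a median of -0.76 over the 408. The median over all probe sets tested was 0.01. The count fell to 321 without local FR replicate 2, to 326 without local FR replicate 3, and to 442, 385 and 353 without touch replicates 1, 2 and 3. With cyclic loess scaling the split was 208 higher and 526 lower, which puts 28.3% of calls on the higher side in place of 38.8%.

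Untreated petioles show on which side of control each group lay, though these values share arrays with the comparison that chose the probe sets. Probe sets called higher had a median of 0.65 above control under local FR and of -0.25 under touch. Those called lower had a median of -0.31 under local FR and of 0.44 under touch. Over all probe sets limma called 186 (1.06%) for local FR against control and 37 (0.211%) for touch against control, 27 higher (0.154%) and 10 lower (0.0571%), and the count of 37 became 483 without control replicate 2 and 0 without touch replicate 2. Touch is the mechanical control of local lighting, but how it was applied is not given, so whether handling matched in both groups is not known. The shares of far-red light and handling in a difference therefore cannot be told apart from these 6 arrays.

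**Figure D1:**
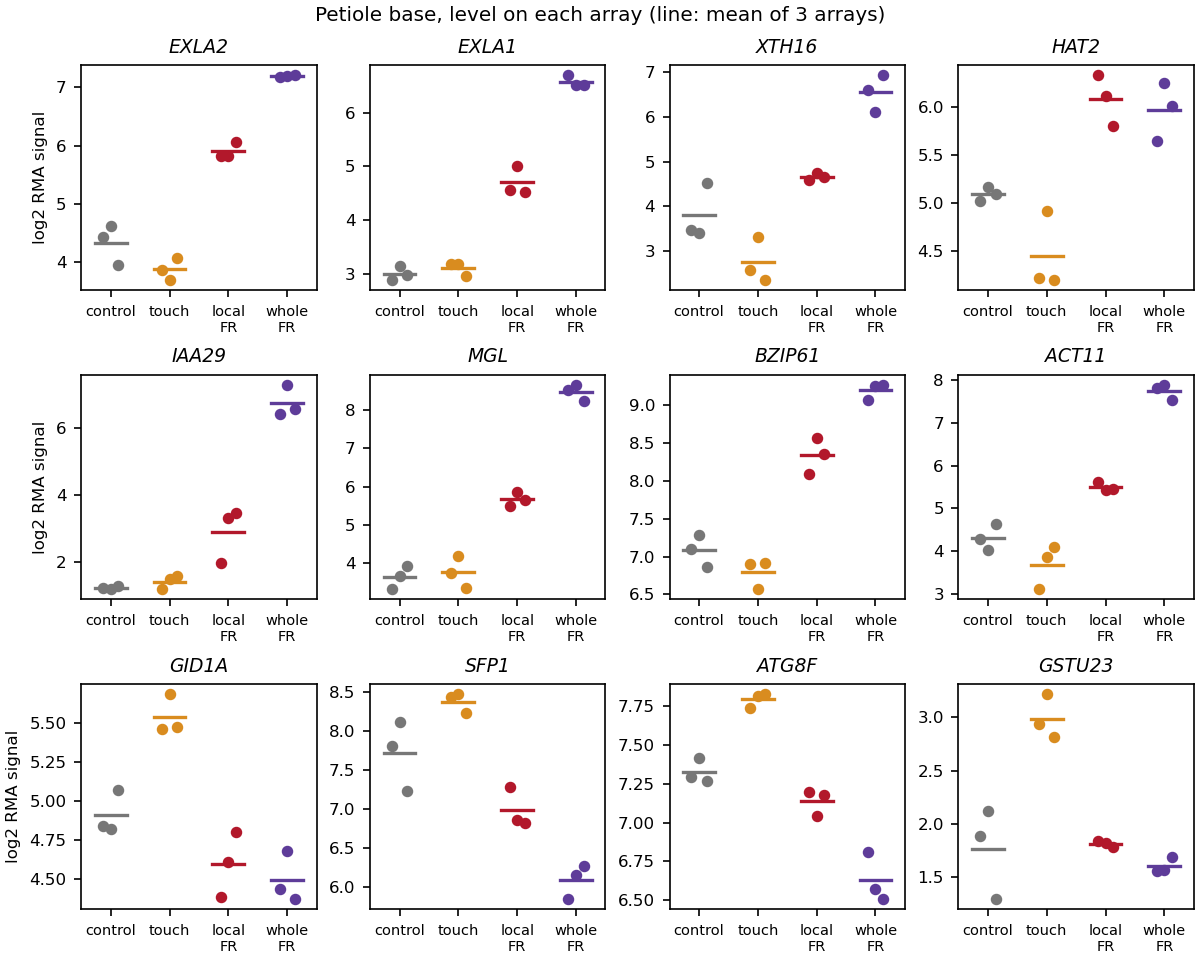
Log2 RMA signal of 12 genes on each of the 12 petiole base arrays, with a line at the mean of the 3 arrays of a group and a vertical scale of its own for each gene. In EXLA2, EXLA1, MGL, BZIP61 and ACT11 the touch arrays lie near the control arrays and the local FR arrays lie between these and whole FR, whereas in GID1A, ATG8F and GSTU23 the touch arrays lie above all control arrays.

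Several cell wall genes were called, most of them higher under local FR. Expansins loosen the bonds between wall polymers without cutting them, and the expansin-like A proteins are a related group. EXLA2 (AT4G38400) stood at 5.82, 5.82 and 6.06 under local FR and at 3.87, 3.70 and 4.07 under touch. Every local FR array lay above every touch array by a wide margin. The log2 difference was 2.02 (SE 0.21, 4.06-fold, limma adjusted p = 7.83e-06). Its neighbour in the family, EXLA1 (AT3G45970), stood at 4.57, 5.02 and 4.53 under local FR and at 3.19, 3.19 and 2.97 under touch, with control arrays at 2.90, 3.15 and 2.99. Touch and control arrays of EXLA1 overlapped, and the local FR arrays lay above both. It was higher by 1.59 (SE 0.19, 3.00-fold, limma adjusted p = 2.83e-05).

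Of 24 measured expansin probe sets, 3 were called higher, 1 was called lower and 20 did not pass the test. Among all probe sets 1.48% were called higher and 2.33% lower. The median log2 difference over the 24 was 0.20, and in 6 of them the arrays of both groups did not overlap, against 20.8% of all probe sets. EXPA8, an alpha-expansin gene, stood at 8.65, 8.12 and 8.15 under local FR and at 7.60, 7.41 and 7.33 under touch. The groups were apart, but the difference of 0.86 (SE 0.23, limma adjusted p = 0.0374) lay close to the threshold. Without any single array of the 6 it was 0.69 to 0.95, at an adjusted p of 0.0629 to 0.145. EXPB3, a beta-expansin gene, ran the other way, at 7.89, 7.93 and 8.04 under local FR and 8.49, 8.86 and 9.08 under touch. Its log2 difference was -0.86 (SE 0.20, limma adjusted p = 0.0142). That call was lost without local FR replicate 2 (-0.85, adjusted p = 0.0611), touch replicate 2 (-0.83, adjusted p = 0.0576) and touch replicate 3 (-0.72, adjusted p = 0.0922). The third expansin-like A gene, EXLA3, had a difference of 0.68 (SE 0.24, limma adjusted p = 0.140) at levels of 1.05 to 2.38, and the other members ranged from -0.43 for EXPA9 to 0.43 for EXPA20.

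Xyloglucan endotransglucosylase/hydrolases (XTH) cut and rejoin the xyloglucan chains that tie cellulose microfibrils together. XTH16 (AT3G23730) stood at 4.58, 4.75 and 4.66 under local FR and at 2.57, 3.32 and 2.35 under touch. The local FR arrays agreed closely, while touch replicate 2 was the highest of its group and still below them. XTH16 was higher by 1.92 (SE 0.27, 3.78-fold, limma adjusted p = 0.000209). Its control arrays, at 3.47, 3.41 and 4.52, lay above all touch arrays and below all local FR arrays. Against control, local FR differed by 0.87 and touch by -1.05 (limma adjusted p = 0.170 and 0.101). XTH33 was higher by 0.93 (SE 0.21, limma adjusted p = 0.0129), at 3.85 to 4.15 against 2.83 to 3.38. Its call was lost without local FR replicates 2 and 3 (0.86 and 0.92, adjusted p = 0.0726 and 0.0535) and touch replicate 2 (0.81, adjusted p = 0.0821), and without touch replicate 1 the difference of 0.90 sat at the threshold. These were the 2 called among 10 measured members, where 1.48% of all probe sets were called higher. The median difference of the 10 was 0.24, and XTH32 had the lowest value, at -0.48.

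Of all probe sets 1.48% were called higher, and of 6 measured genes of cellulose and xyloglucan synthesis 1 was. This was CSLC04, which codes for the synthase of the xyloglucan backbone. It stood at 9.71, 10.30 and 9.94 under local FR and at 9.47, 9.19 and 9.05 under touch, and the lowest local FR array lay only slightly above the highest touch array. The difference was 0.75 (SE 0.16, limma adjusted p = 0.00857), or 0.59 (adjusted p = 0.0749) without local FR replicate 2 and 0.65 (adjusted p = 0.0590) without touch replicate 3. All 6 members had a positive difference, with a median of 0.34.

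The cytoskeleton genes that were called were also higher under local FR than under touch. Actin filaments guide secretory vesicles, and microtubules of alpha- and beta-tubulin guide cellulose synthases in the wall. ACT11 (AT3G12110), an actin gene, stood at 5.61, 5.42 and 5.46 under local FR and at 3.12, 3.87 and 4.09 under touch. Touch replicate 1 was the lowest, and the highest touch array lay well below the lowest local FR array. ACT11 was higher by 1.80 (SE 0.33, 3.49-fold, limma adjusted p = 0.00231). The beta-tubulin gene TUB7 was higher by 0.99 (SE 0.23, limma adjusted p = 0.0157), at 6.09 to 6.63 against 5.24 to 5.44. Its call was lost without local FR replicates 2 and 3 (1.001 and 0.843, adjusted p = 0.0554 and 0.103) and touch replicates 2 and 3 (0.925 and 1.002, adjusted p = 0.0718 and 0.0508). TUB6, another beta-tubulin gene, was higher by 0.56 (SE 0.16, limma adjusted p = 0.0490), a call that ended without any single array of the 6, at adjusted p of 0.0535 to 0.246, and with cyclic loess (0.48, adjusted p = 0.102), among other settings. The tubulin and actin list held 8 measured genes, of which 3 were called higher and none lower, with a median of 0.44. Among all probe sets 1.48% were called higher and 2.33% lower. TUB1, TUA6, TUB5, ACT12 and TUB9 had differences of 0.07 to 0.47 that did not pass the test. Against control, ACT11, TUB7 and TUB6 differed by 1.18, 0.21 and 0.71 under local FR (limma adjusted p = 0.102, 0.918 and 0.0218). Under touch they differed by -0.63, -0.78 and 0.16 (limma adjusted p = 0.513, 0.159 and 0.825). Control tip minus control base was -0.84, -1.83 and -1.53 (limma adjusted p = 0.0602, 1.7e-06 and 1.1e-07). For them light and position along the leaf, taken up below, cannot be told apart.

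**Figure D2:**
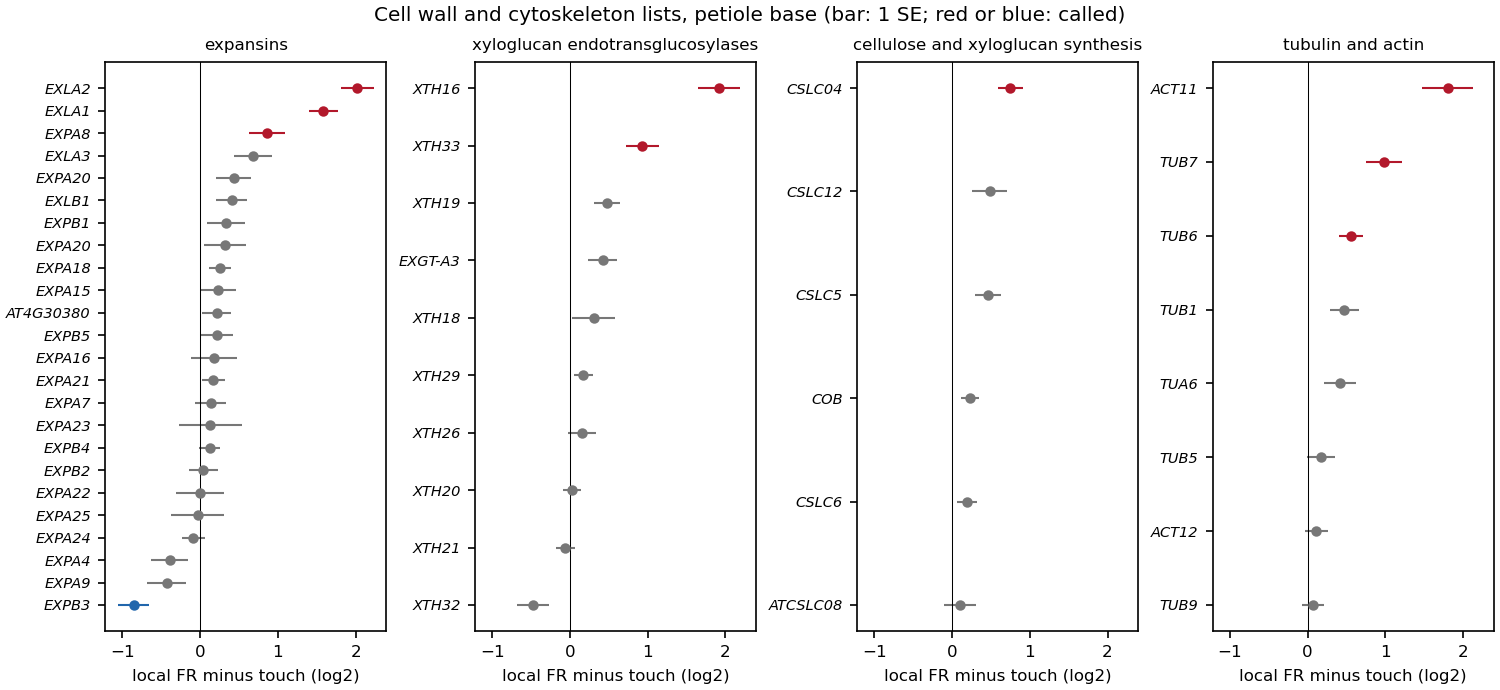
Log2 difference between local FR and touch in the petiole base for the measured members of 4 gene lists, with bars of 1 standard error, red for members called higher, blue for lower and grey for not called. EXLA2, EXLA1, XTH16 and ACT11 stand apart from the other members of their lists, and EXPB3 is the 1 member called lower.

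HAT2 (AT5G47370) codes for a homeodomain-leucine zipper factor induced by auxin and by low R:FR. It stood at 6.33, 6.12 and 5.81 under local FR, at 4.22, 4.92 and 4.20 under touch, and at 5.02, 5.17 and 5.10 in control. The touch arrays lay below all control arrays and the local FR arrays above them, so both sides contributed to the difference of 1.64 (SE 0.19, 3.12-fold, limma adjusted p = 2.07e-05). IAA29 (AT4G32280), an Aux/IAA repressor gene that PIFs induce, stood at 1.97, 3.31 and 3.45 under local FR and at 1.19, 1.49 and 1.58 under touch. The touch arrays were near the low end of the signals, and local FR replicate 1 was only a little above them. The difference was 1.49 (SE 0.31, limma adjusted p = 0.00721), or 1.29 (adjusted p = 0.0579) without local FR replicate 2 and 1.22 (adjusted p = 0.0607) without local FR replicate 3. FHL, which codes for a factor that carries phytochrome A into the nucleus, was the third measured shade avoidance gene, with a difference of 0.64 (SE 0.27, limma adjusted p = 0.232) and arrays of 3.43 to 3.77 against 2.77 to 3.08. The other 7 of 8 measured Aux/IAA genes differed by -0.07 to 0.19 and were not called, where 1.48% of all probe sets were called higher.

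WAG2, whose kinase product phosphorylates PIN auxin efflux carriers, was the single measured gene of the auxin transport list. It stood at 2.01, 2.69 and 2.78 under local FR and at 1.23, 1.18 and 0.96 under touch, where it was at the low end of the signals. It was higher by 1.37 (SE 0.32, limma adjusted p = 0.0155), and by 1.27, 1.23 and 1.29 without local FR replicates 2 and 3 and touch replicate 3, at adjusted p of 0.0809, 0.0896 and 0.0703. Genes of auxin synthesis, namely YUC2, YUC4, YUC6 and YUC11, differed by -0.19 to 0.14 and none was called. Among 6 GH3 genes, whose products conjugate auxin or other acyl acids to amino acids, 1 was called lower, where 2.33% of all probe sets were. GH3.9 was lower by 0.57 on the log2 scale (difference -0.57, SE 0.15, limma adjusted p = 0.0293). That call was lost without local FR replicates 1, 2 and 3 (-0.55, -0.52 and -0.63, adjusted p = 0.0653, 0.135 and 0.0510) and touch replicates 2 and 3 (-0.45 and -0.62, adjusted p = 0.167 and 0.0564). GH3.3 had a difference of 1.38 (SE 0.53, limma adjusted p = 0.184), with arrays of 2.62, 2.96 and 4.16 against 1.45, 1.82 and 2.32.

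Organ growth and transcription factor genes were also among the larger differences. ARL (AT2G44080), an ARGOS-like gene that promotes cell expansion in leaves, stood at 6.30, 6.28 and 6.13 under local FR and at 4.65, 4.21 and 4.00 under touch. No touch array reached a local FR array, and ARL was higher by 1.95 (SE 0.26, limma adjusted p = 0.000120). BZIP61 (AT3G58120), a basic leucine zipper factor gene, stood at 8.09, 8.57 and 8.35 against 6.91, 6.57 and 6.91, and its control arrays, at 6.86 to 7.29, overlapped touch. It was higher by 1.54 (SE 0.16, limma adjusted p = 7.93e-06). BZIP34 was higher by 0.95 (SE 0.17, limma adjusted p = 0.00207) and bZIP44 by 0.79 (SE 0.20, limma adjusted p = 0.0285). The call of bZIP44 was lost without local FR replicates 1 and 2 (0.77 and 0.69, adjusted p = 0.0633 and 0.147) and touch replicates 1 and 2 (0.66 and 0.78, adjusted p = 0.138 and 0.0920). The bZIP list held 23 measured members, 3 called higher and 20 not called, with a median of 0.14, where 1.48% of all probe sets were called higher. RTFL13, a small peptide gene of the ROTUNDIFOLIA-like family, was higher by 1.83 (SE 0.26, limma adjusted p = 0.000230), at 3.39 to 4.24 against 1.55 to 2.55. PHE1, a MADS-box gene best known from the endosperm, was higher by 2.17 (SE 0.40, limma adjusted p = 0.00251), at 3.60 to 4.23 against 1.45 to 2.01.

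Of the remaining named rises with a symbol, both act in sulphur amino acid metabolism. MGL (AT1G64660), which codes for methionine gamma-lyase, an enzyme that breaks methionine down, stood at 5.50, 5.85 and 5.65 under local FR and at 3.74, 4.17 and 3.35 under touch. Control arrays of MGL, at 3.31, 3.67 and 3.91, overlapped the touch arrays, and all local FR arrays were above both. MGL was higher by 1.91 (SE 0.23, 3.76-fold, limma adjusted p = 2.83e-05). HMT-1, a homocysteine S-methyltransferase gene, was higher by 1.71 (SE 0.25, limma adjusted p = 0.000281), at 5.398 to 6.222 against 3.908 to 4.499.

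Among the genes that were lower, GID1A was measured with all of its family. GID1A, GID1B and GID1C code for the gibberellin receptors, which bind DELLA repressors for destruction when the hormone is present. GID1A (AT3G05120) stood at 4.38, 4.61 and 4.80 under local FR, at 5.46, 5.68 and 5.48 under touch, and at 4.84, 4.82 and 5.07 in control. All touch arrays lay above control, and all local FR arrays lay below it. The log2 difference was -0.94 (SE 0.15, 1.92-fold in size, limma adjusted p = 0.000568). GID1C had a difference of -0.51 (SE 0.26, limma adjusted p = 0.378) and GID1B of -0.32 (SE 0.23, limma adjusted p = 0.631). SLY1, which codes for the F-box protein that marks DELLA proteins, had -0.25 (SE 0.18, limma adjusted p = 0.614). Thus 1 of 4 measured gibberellin genes was called lower, where 2.33% of all probe sets were.

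SFP1, a gene of a sugar transporter family, stood at 7.28, 6.86 and 6.82 under local FR and at 8.43, 8.47 and 8.22 under touch. The groups were well apart, and control, at 7.22 to 8.11, lay below all touch arrays and overlapped local FR. Its log2 difference was -1.39 (SE 0.21, limma adjusted p = 0.000433). ATG8F, a ubiquitin-like gene of autophagosome formation, stood at 7.20, 7.04 and 7.18 against 7.74, 7.82 and 7.83, with the 3 control arrays, at 7.27 to 7.41, between the groups. ATG8F had a difference of -0.66 (SE 0.14, limma adjusted p = 0.00741), and 9 of the other 10 autophagy probe sets had negative differences that did not pass the test. AMY1, an alpha-amylase gene, had a difference of -1.34 (SE 0.24, limma adjusted p = 0.00205), at 1.81 to 2.25 against 3.20 to 3.79. PUB24, a U-box ubiquitin ligase gene that restrains immune signalling, had -1.25 (SE 0.24, limma adjusted p = 0.00453), at 3.08 to 3.54 against 4.31 to 5.17.

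GSTU23, a glutathione transferase gene, stood at 1.84, 1.82 and 1.78 under local FR, at 2.94, 3.22 and 2.82 under touch, and at 1.89, 2.12 and 1.30 in control. Local FR arrays lay within the range of control and touch arrays lay above it. The difference was -1.17 (SE 0.19, limma adjusted p = 0.000855). FAMT, a farnesoic acid methyltransferase gene, had the lowest value of all single-gene probe sets called, at -2.99 (SE 0.66, limma adjusted p = 0.0108), but it varied widely. Its arrays stood at 1.77, 3.21 and 1.30 under local FR, at 5.85, 5.28 and 4.11 under touch, and at 1.55, 4.85 and 1.11 in control. Control replicate 2 thus lay within the range of touch. The call of FAMT was lost without local FR replicate 3 (-2.59, adjusted p = 0.0756) and touch replicate 1 (-2.60, adjusted p = 0.0624).

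Some glycosyltransferase and beta-glucosidase genes were lower. UGT72E1, which glucosylates lignin precursor aldehydes, stood at 5.51, 4.47 and 4.22 under local FR and at 6.268, 6.199 and 5.963 under touch. Local FR replicate 1 was the highest of its group and still below all touch arrays, and the difference was -1.41 (SE 0.26, limma adjusted p = 0.00310). UGT85A7 had -1.22 (SE 0.29, limma adjusted p = 0.0203), lost without local FR replicates 2 and 3 (-0.86 and -1.19, adjusted p = 0.159 and 0.0791) and touch replicates 2 and 3 (-1.21 and -1.13, adjusted p = 0.0670 and 0.0910). Of 26 probe sets of the ER body and glucosinolate list 3 were called, all lower and all coding for beta-glucosidases. Over all probe sets 2.33% were called lower. The list was matched by symbol, and whether these 3 act in ER bodies or on glucosinolates was not examined. BGLU47 had -1.33 (SE 0.26, limma adjusted p = 0.00507), at 6.66 to 7.10 against 7.98 to 8.41. BGLU44 had -0.52 (SE 0.11, limma adjusted p = 0.0103), lost without local FR replicate 2 (-0.46, adjusted p = 0.0690) and touch replicate 3 (-0.46, adjusted p = 0.0684). BGLU33 had -0.67 (SE 0.19, limma adjusted p = 0.0478) and lost its call without any single array of the 6, at adjusted p of 0.0520 to 0.201. The median over the 26 was -0.10.

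Single members of other lists were lower close to the threshold, where 2.33% of all probe sets were called lower. KIN2, induced by cold and by abscisic acid, had -0.89 (SE 0.21, limma adjusted p = 0.0180), lost without local FR replicate 2 (-0.67, adjusted p = 0.140) and touch replicate 2 (-0.78, adjusted p = 0.102), and the other 4 of its list were not called. AT5MAT, an anthocyanin malonyltransferase gene, had -0.75 (SE 0.20, limma adjusted p = 0.0348). Its call was lost without local FR replicates 1 and 3 (-0.71 and -0.63, adjusted p = 0.0855 and 0.176) and touch replicates 1 and 2 (-0.67 and -0.65, adjusted p = 0.137 and 0.158), and 5 other flavonoid genes, at -1.16 for UF3GT to -0.08 for CHI, were not called. GRXC2, a glutaredoxin gene, had -0.73 (SE 0.17, limma adjusted p = 0.0142), lost without local FR replicates 2 and 3 (-0.72 and -0.58, adjusted p = 0.0574 and 0.110) and touch replicates 2 and 3 (-0.71 and -0.72, adjusted p = 0.0577 and 0.0536). The list of touch and early stress genes had 8 measured members and no call. STZ, a zinc finger gene of stress responses, had the lowest value there, at -1.07, and the other 7, which are 6 calmodulin-like CML genes and AT1G76640, lay between -0.26 and 0.32.

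Many of the largest differences were at loci without a symbol in the gene table used. AT5G57760 stood at 4.87, 5.09 and 5.16 under local FR and at 1.88, 1.69 and 2.03 under touch. It had the smallest p of all, with a difference of 3.17 (SE 0.23, 9.03-fold, limma adjusted p = 1.04e-07). AT1G52750 stood at 7.596, 8.002 and 8.051 against 5.06, 5.42 and 5.26, and was higher by 2.64 (SE 0.24, limma adjusted p = 9.22e-07). Its control arrays, at 6.15, 6.93 and 6.29, lay between the groups. Against control, local FR differed by 1.43 and touch by -1.21 (limma adjusted p = 0.00227 and 0.0305). AT2G41170, AT5G63820 and AT5G66580 were higher by 2.21, 2.18 and 2.10, each at a limma adjusted p of 9.22e-07. AT1G11120, AT5G45670 and AT1G44830 were higher by 2.79, 2.42 and 2.30. Against control these loci differed by 1.20, 1.29 and 2.21 under local FR and by -1.59, -1.13 and -0.09 under touch. AT4G22485 had the highest difference, 4.06 (SE 1.07, limma adjusted p = 0.0351), on arrays that ranged from 6.39 to 9.99 under local FR, from 1.18 to 5.30 under touch and from 4.97 to 10.58 in control. Its call was lost without local FR replicate 3 (3.02, adjusted p = 0.217) and touch replicate 2 (2.72, adjusted p = 0.223). Among the loci that were lower, AT1G14250, AT1G64370, AT1G60590 and AT4G27300 differed by -2.01, -1.95, -1.93 and -1.75. AT5G05960 stood at 2.14, 1.72 and 2.03 against 3.634, 3.799 and 4.371, a difference of -1.97 (SE 0.26, limma adjusted p = 7.87e-05), and AT3G28220 at 6.13, 4.41 and 4.37 against 8.13, 6.98 and 7.31, a difference of -2.50 (SE 0.44, limma adjusted p = 0.00168).

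Cell type and physiology markers were set beside these results. Of 25 light harvesting and photosystem probe sets 24 were lower under local FR, by little. Called lower were 2.33% of all probe sets and 1 of these 25. This was LHCB4.3, at -0.76 (SE 0.21, limma adjusted p = 0.0497), a call lost without any single array of the 6, at adjusted p of 0.0630 to 0.174. The summed log2 level of the 25 was 16.40 to 16.51 under local FR, 16.50 to 16.58 under touch, 16.40 to 16.53 in control petiole bases and 16.59 to 16.65 in control tips. Of 7 cell division genes 6 were higher under local FR, at most 0.69 for the mitotic kinase gene AUR3, and none was called. Their summed level was 7.69 to 8.28 under local FR and 7.55 to 7.73 under touch. The phloem marker measured, the sucrose transporter gene SWEET11, stood at 1.20 to 1.93 under local FR and 1.24 to 1.56 under touch, near the low end of the signals, against 8.94 to 9.17 in control tips. None of the guard cell (3 measured), trichome (2), epidermis (2), xylem and cambium (2) or meristem, boundary and bud (3) markers was called. Their part in the differences between local FR and touch was not tested.

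The petiole bases of whole FR plants set against those of controls give a far-red comparison that shares no array with local FR against touch. In limma it called 2323 probe sets (13.3%), 1256 higher (7.18%) and 1067 lower (6.1%). Of the 259 probe sets higher under local FR than under touch, 224 (86.5%) were above control under whole FR, against 49.9% of all tested, and their median difference there was 1.08. Called higher in both were 181, which is 69.9% of the local FR list and 14.4% of the whole FR list. Of the 408 that were lower, 45 (11%) were above control under whole FR, with a median of -0.60, and 225 were called lower in both, or 55.1% of the local FR list and 21.1% of the whole FR list. Across all probe sets the differences of both comparisons correlated at 0.42, as a description over probe sets measured on the same arrays.

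Sizes differed from gene to gene between the comparisons. IAA29 was 5.50 above control under whole FR, with arrays at 6.4, 7.27 and 6.54, against 1.49 for local FR over touch. MGL was 4.85 above control, EXLA1 3.56, ACT11 3.42, HMT-1 3.18, EXLA2 2.86, XTH16 2.75 and XTH33 3.60, each more than for local FR over touch. HAT2 was 0.87 above control under whole FR and 1.64 above touch under local FR, and its arrays under both lights overlapped, at 5.65 to 6.25 and 5.81 to 6.33. FHL, not called for local FR, was 3.32 above control under whole FR, at 5.979 to 6.203. No difference between these sizes was tested.

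Some genes called for local FR over touch were not called under whole FR, which does not show that the responses differ. GID1A was at -0.41 there (limma adjusted p = 0.0697), GSTU23 at -0.17 (limma adjusted p = 0.728), AMY1 at -0.31 (limma adjusted p = 0.541) and PUB24 at -0.71 (limma adjusted p = 0.0622). SFP1, ATG8F and BGLU47 were called there too, and fell by 1.63, 0.69 and 2.10 on the log2 scale. AT1G30190 was higher by 2.17 under local FR (SE 0.26, limma adjusted p = 3.50e-05), at 3.17, 3.52 and 4.13 against 1.43, 1.65 and 1.24, and was at 0.23 (limma adjusted p = 0.722) under whole FR. Called in opposite directions were 6 probe sets. AT3G28420 was higher under local FR than under touch and lower under whole FR than in control, and AT3G02910, AT1G78070, AT4G31355, AT1G49310 and AT5G24155 were the reverse. None of the 6 was called for local FR against control, at -0.27 to 0.08 (limma adjusted p = 0.901 to 0.998). Touch minus control was -1.26 for AT3G28420 (limma adjusted p = 0.0395) and 0.41 to 1.05 for the others, not called.

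**Figure D3:**
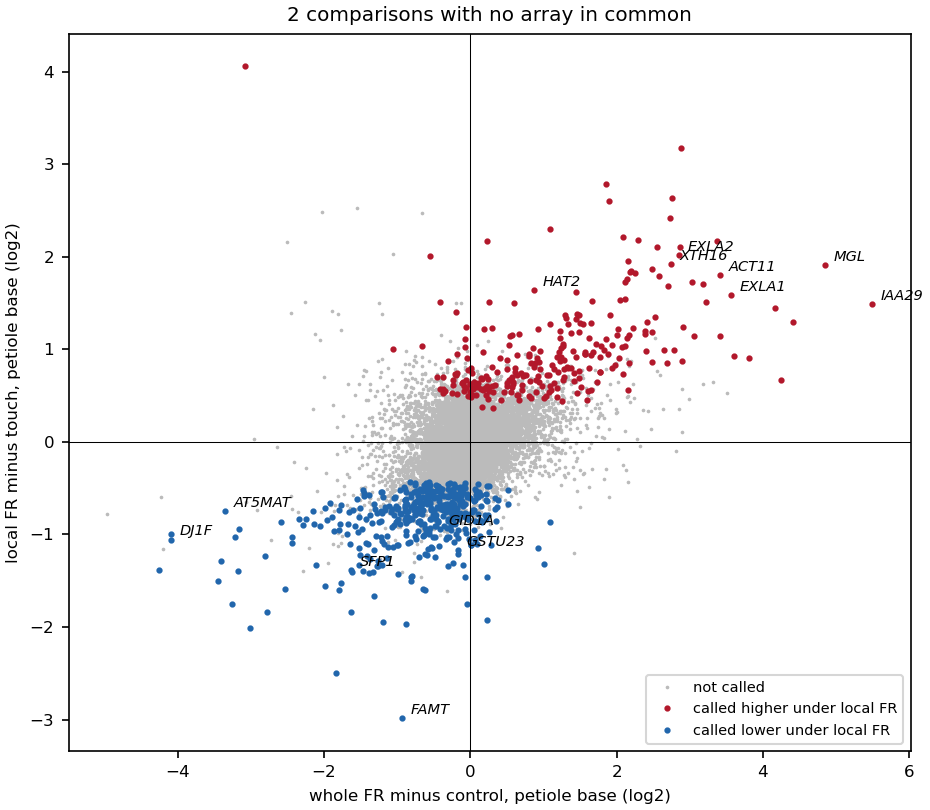
Log2 difference of local FR over touch (vertical axis) against that of whole FR over control (horizontal axis) in the petiole base for 17504 probe sets, with calls of the first comparison in red (259 higher) and blue (408 lower). The comparisons share no array; most red points lie to the right of 0 and most blue points to the left.

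The same contrast at the lit end of the leaf used other arrays. In the leaf tip limma called 242 probe sets for local FR against touch (1.38%), 132 higher (0.754%) and 110 lower (0.628%), and 136 to 222 without a single array. Called higher at both ends were 13, which is 5.02% of the petiole base list and 9.85% of the tip list, and called lower at both were 23, which is 5.64% and 20.9%. The 13 include ARL, HAT2, IAA29 and XTH33, and the 23 include SFP1, BGLU47 and DJ1F. Across all probe sets the differences at both ends correlated at 0.13.

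Whether the difference between local FR and touch itself differed between the ends was tested as base minus tip. In limma 262 probe sets were called (1.5%), 125 with the higher value in the base (0.714%) and 137 with the lower (0.783%), and 169 without touch petiole base replicate 2, 173 without local FR petiole base replicate 2 and 174 without touch leaf tip replicate 2. This fit takes tip and base arrays as independent although both were cut from the same leaf. With tip and base of the same treatment and replicate number taken as 1 leaf, 114 were called with the higher value in the base and 142 with the lower, 208 of them shared with the fit above, and of 34 named genes with a called difference between the ends 31 kept it. EXLA1 had a difference of -0.25 in the tip, and its difference between the ends was 1.83 (SE 0.26, limma adjusted p = 0.000363). EXLA2 differed between the ends by 1.61 (limma adjusted p = 0.00469), BZIP61 by 1.92 (limma adjusted p = 4.2e-05) and MGL by 1.59 (limma adjusted p = 0.0109), each with the higher value in the base. For XTH16 and ACT11 the values of 1.48 and 1.67 did not pass the test (limma adjusted p = 0.0555 and 0.0801).

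IAA29, GH3.3 and IAA34 had lower values in the base than in the tip. IAA29 differed from touch by 3.33 in the tip, with a base minus tip value of -1.84 (limma adjusted p = 0.0331), and in touched tips it already stood at 4.41 ± 0.60 (SD, n = 3), against 1.42 ± 0.20 in touched petiole bases. GH3.3 and IAA34 differed by 4.65 and 3.63 in the tip, and their base minus tip values were -3.27 (limma adjusted p = 0.0269) and -3.44 (limma adjusted p = 3.5e-08). IAA34 stood at 1.42 to 1.57 under local FR in the base, near the low end of the signals. ARL and HAT2 were higher at both ends, by 1.83 and 1.002 in the tip, and their base minus tip values of 0.12 (SE 0.37) and 0.64 (SE 0.26) did not pass the test (limma adjusted p = 0.958 and 0.326). GID1A did not differ from touch in the tip beyond its error, at -0.03 (SE 0.15), and its base minus tip value was -0.91 (limma adjusted p = 0.0238).

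Opposite calls at the ends were few. AT1G06360, AT2G30930 and AT1G50040 were higher in the base and lower in the tip. AT1G06360 stood at 6.52, 6.82 and 7.24 under local FR and at 4.42, 3.92 and 4.45 under touch in the base, a difference of 2.60, and its difference in the tip was -1.71. Its control petiole bases stood at 6.55, 5.62 and 7.12, so touch lay below control and local FR overlapped it. Lower in the base and higher in the tip were 11 probe sets, among them EXPB3, the cytochrome P450 gene CYP71B26, and APL3, which codes for a large subunit of the enzyme that opens starch synthesis. APL3 differed from touch by -1.15 (SE 0.21) in the base and by 0.96 in the tip.

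**Figure D4:**
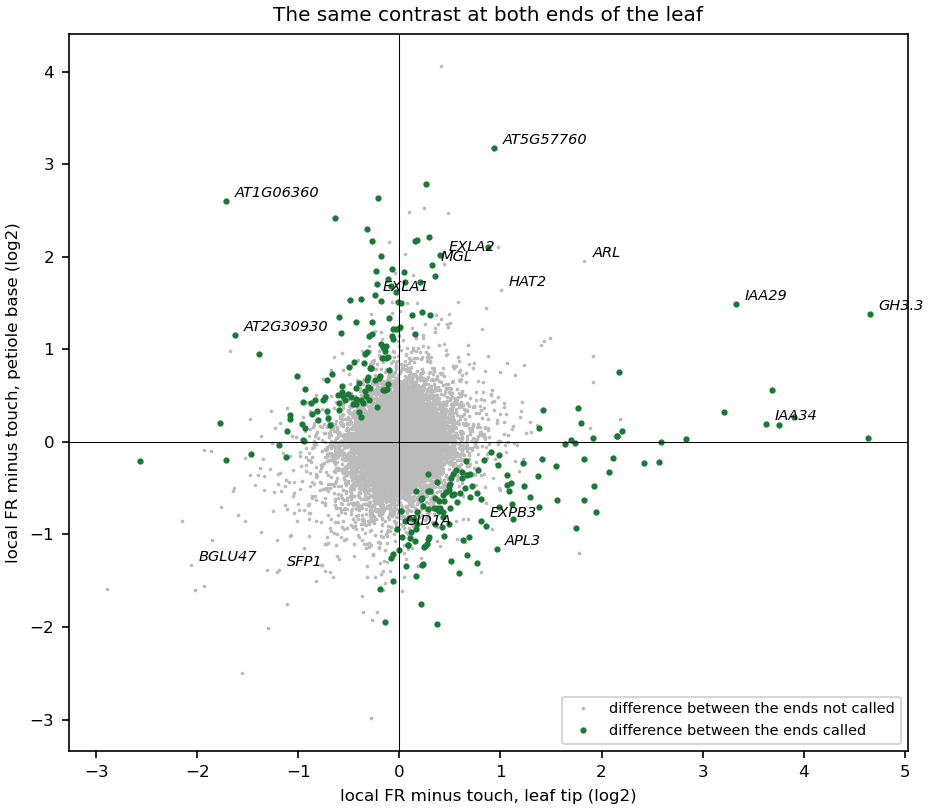
Log2 difference of local FR over touch in the petiole base (vertical axis) against that in the leaf tip (horizontal axis) for 17504 probe sets, in green where the difference between the ends was called (262). EXLA1, EXLA2, MGL and AT5G57760 lie high on the vertical axis, GH3.3, IAA34 and IAA29 far to the right, and ARL and HAT2 are high on both.

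Many genes differ in level along the leaf, so each array was placed on the axis from control petiole base to control leaf tip. On this score 0 is the mean of the control bases and 1 that of the control tips, and neither group compared enters its direction. The local FR arrays scored 0.056, -0.027 and -0.062, a mean of -0.011 ± 0.060 (SD, n = 3), and the touch arrays scored 0.112 ± 0.002. All touch arrays lay above all local FR arrays, by 0.123 on average, with a p of 0.1 in a two-sided exact permutation test, the smallest that 3 against 3 arrays allow. Control petiole bases scored 0 ± 0.078 and whole FR petiole bases 0.023 ± 0.023. With the direction taken from the whole FR arrays the difference was -0.179, at the same p. On that axis local FR scored -0.100, touch 0.079, control petiole bases 0 ± 0.045 and whole FR petiole bases -0.228 ± 0.017. Its direction holds any effect of far-red light on either end, so it does not measure position alone.

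Position and calls went together in the list. Of the 259 probe sets called higher under local FR, 44 (17%) were higher in the control tip than in the control base, and of the 408 called lower 272 (66.7%) were, against 56.5% of all tested. The difference between local FR and touch and that between control tip and base correlated at -0.29 across probe sets. Thus 215 higher calls and 272 lower calls ran in the direction of a more basal piece under local FR. The 44 higher calls that ran against position had a median difference of 0.90 and included ARL, MGL, HAT2, BZIP61, BZIP34, IAA29 and EXPA8. Of these 44, 43 (97.7%) were above control under whole FR, and of the 215 that ran with position 181 (84.2%) were. Among the 136 lower calls that ran against position were EXPB3, SFP1, BGLU47, AMY1 and GSTU23. The split took the sign of control tip minus control base alone. That difference did not pass the test for ARL, MGL, BZIP61, BZIP34 and GSTU23. Their values were 0.25, 0.19, 0.10, 0.22 and -0.32 (limma adjusted p = 0.526, 0.574, 0.692, 0.372 and 0.220).

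A fit on the 12 petiole base arrays with the score as a covariate called 44 probe sets, 37 higher and 7 lower, where the fit on these arrays without it called 461. No sign turned among the 667, and the median ratio to the difference without the covariate was 0.74. The covariate stood higher on every touch array than on every local FR array, so the fit cannot fully separate it from the groups. A single difference could shrink or grow with it, as in EXLA2, at 2.02 without it, and GID1A, at -0.94 without it. Of 61 named probe sets that were called, 14 remained so. With the covariate EXLA2 was higher by 2.23 (limma adjusted p = 0.00333), EXLA1 by 1.64 (limma adjusted p = 0.0114), HAT2 by 1.94 (limma adjusted p = 0.0214), BZIP61 by 1.63 (limma adjusted p = 0.0162), MGL by 1.82 (limma adjusted p = 0.0379) and AT5G57760 by 2.68 (limma adjusted p = 0.0162), and GID1A had -1.15 (limma adjusted p = 0.0314). The other 7 were the loci AT1G52750, AT1G06360, AT5G45670, AT2G41170, AT5G63820, AT5G66580 and AT2G30930. Calls lost include XTH16 (1.33, adjusted p = 0.231), ACT11 (1.61, adjusted p = 0.0783), ARL (1.54, adjusted p = 0.0693), IAA29 (0.98, adjusted p = 0.473), SFP1 (-0.79, adjusted p = 0.152) and ATG8F (-0.58, adjusted p = 0.211). XTH16, ACT11 and ATG8F ran in the direction of a more basal piece. So did some calls that were kept, among them EXLA2, with control tip minus control base at -1.82 (limma adjusted p = 6.1e-07). AT1G52750, AT5G45670 and AT5G63820 did too, at -2.92, -2.21 and -1.82. For all of these treatment and position cannot be told apart here. Of the kept calls HAT2, BZIP61, MGL and AT5G57760 ran against that direction by sign. Of the lost ones IAA29 and SFP1 did, and for ARL the control ends did not differ beyond error (0.25, SE 0.26).

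**Figure D5:**
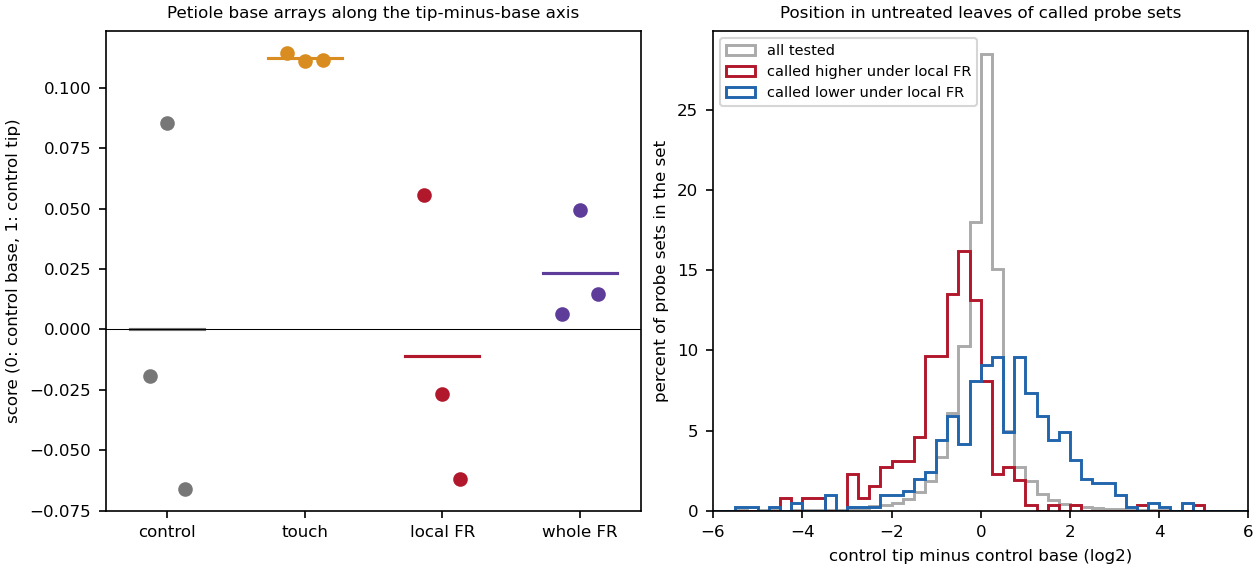
Left, score of each petiole base array on the axis from control petiole base (0) to control leaf tip (1), with a line at the mean of each group of 3. Right, difference between control tip and control base (log2, horizontal axis) as the percent of probe sets in each bin, for all tested and for those called higher or lower under local FR; the touch arrays lie close together near 0.112, and the called sets are shifted to opposite sides of all tested.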

How the data were processed

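The authors deposited log2 RMA values for 24 arrays, which per the labels come from a core-gene run of Expression Console. RMA makes distributions of probe intensities equal across arrays before they are summarised to probe sets. Medians over the probe sets with a gene still ranged from 2.58 to 2.80 across arrays. The software version and the annotation release are not given in the sources used here, and scanner files were not used here. Of 38408 probe sets, the platform annotation gave 16746 with 1 gene and 758 with several, and 20904 are unlisted. Symbols were taken from the reference gene table, which held 16601 of the single-gene probe sets, and 1826 of the single-gene probe sets had a symbol of their own. Several probes of close family members may cross-hybridise, which was not examined.

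The model, run with limma 3.58.1 under R 4.3.3, took all 24 arrays, gave each of the 8 groups its own mean, left 16 residual degrees of freedom and used eBayes without trend. Tests were two-sided, and p-values were adjusted by Benjamini-Hochberg over 17504 probe sets with a gene, for each of 6 comparisons. Control tip against control base was fitted and adjusted in the same way. The fit was tested on simulated data. A log2 difference is given with its moderated standard error (SE), and the number of arrays, 3 per group, limits the precision. Scores along the leaf were compared by exact permutation in scipy 1.17.1.

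The members and gene lists were chosen with earlier results of these data known. Named were the 12 largest rises and falls among called single-gene probe sets, the 8 largest each way with a symbol, up to 5 called members of each list, all shade avoidance, expansin, gibberellin and tubulin members, and the 5 largest differences between the ends each way, which gave 95 probe sets. Any other gene named was chosen after its values were seen. Of 41 lists, 37 had a measured member. The SAUR and aquaporin lists matched no probe set, and the brassinosteroid and cytosolic ribosomal lists had none left once 1 and 14 false matches by symbol were taken out, while 21 of the 37 had no called member.

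Same-numbered arrays deviated from their group means with correlations of 0.009, 0.098 and 0.191 across probe sets, so the numbers were not taken to pair the groups. For tip and base of the same treatment and number these correlations were 0.013 to 0.129, and a fit with the leaf as a block was added after seeing the data. Alternatives were the replicate block, a robust eBayes with variance trend, cyclic loess, all probe sets of the file, a filter on the dimmest 30%, a fit on the compared groups alone, petiole base arrays only with and without the position score, and each array left out in turn. Promoter sequences were not analysed here, and no coordinates are given because the array's build was not stated.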

Additional observations from a re-analysis of the deposited data

Results flagged for a closer look

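A named gene was singled out where the log2 difference of local FR over touch differed between petiole base and leaf tip in limma, and 34 did. The higher value lay in the base for 19 and in the tip for 15. Many of the genes were named by the size of these and related differences, so the split is not read as a result. Over all probe sets the calls were 125 and 137. The loci among them were AT1G06360 (4.31), AT5G45670 (3.05), AT1G52750 (2.85), AT2G30930 (2.78), AT1G44830 (2.62), AT1G11120 (2.52), AT5G57760 (2.24), AT1G30190 (2.01), AT5G63820 (2.001), AT2G41170 (1.92) and AT5G66580 (1.22). With a symbol there were PHE1 (2.44), HMT-1 (1.93), BZIP61 (1.92), EXLA1 (1.83), RTFL13 (1.79), EXLA2 (1.61), MGL (1.59) and BZIP34 (1.29).

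The value was lower in the base, in which case the base minus tip difference is negative, for 3 loci called higher in lit tips and not called in the base, namely AT5G02540 (-3.64), AT3G21330 (-3.57) and AT2G47780 (-3.13). IAA34 (-3.44), GH3.3 (-3.27) and IAA29 (-1.84), all auxin response genes, were of the same kind, although IAA29 was called in the base too. Genes called lower under local FR in the base and not called lower in the tip were UGT72E1 (-2.01), EXPB3 (-1.67), KIN2 (-1.39), LHCB4.3 (-1.19), GSTU23 (-1.17) and GID1A (-0.91), with the loci AT5G05960 (-2.34), AT1G57590 (-1.97) and AT1G64370 (-1.80). With tip and base of a number taken as 1 leaf, 31 of the 34 remained called, and KIN2, GSTU23 and AT1G57590 did not (limma adjusted p = 0.0800, 0.0608 and 0.0720). Groups of 3 arrays were not examined for single outlying arrays by a formal rule.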

How the results depend on the processing

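For local FR against touch in the petiole base, all 667 probe sets called kept their direction under each alternative that tested them. The replicate block, variance trend, dim filter, all probe sets and fits on fewer groups leave the estimated difference unchanged, so no sign could turn there. A sign could turn only with cyclic loess, the position covariate or an array left out, and the calls were chosen on the same arrays. Of 61 named calls, 37 were kept under every alternative except the position covariate. Beside that covariate (44 called), the count was 1058 with all probe sets of the file, where more are tested, and 400 with only the groups compared, where fewer arrays estimate the spread. Leaving out single arrays gave 321 to 748. With the replicate block it was 792, of which 661 were shared. Base minus tip gave 444 with all probe sets, 319 with the replicate number as a block and 169 to 291 without single arrays. Local FR against control gave 327 with all probe sets, 27 with only the groups compared and 78 to 220 without single arrays. Touch against control gave 62 with the replicate block, 85 with variance trend and robust estimation, 0 with only the groups compared (1695 at an unadjusted p below 0.05), and 0 to 483 without single arrays. Whole FR against control gave 4266 with all probe sets and 1819 to 2203 without single arrays, and the leaf tip contrast gave 418, 118 with only the groups compared, and 136 to 222. The cause of the other shifts was not tested. Signals near background limit what can be seen at dim genes such as IAA34, EXLA3 and WAG2, and 20904 unlisted probe sets remain unnamed.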

Other observations

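Further called genes with a symbol, named after their values were seen, are given here without a test of any group they may form. Among those higher under local FR than under touch were 2 small peptide genes, IDL3 of the IDA-like family by 1.62 (SE 0.25, limma adjusted p = 0.000492) and RTFL18 of the ROTUNDIFOLIA-like family by 0.76 (SE 0.18, limma adjusted p = 0.0215). SKU5, which codes for a cell surface protein needed for directed root growth, was higher by 0.69 (SE 0.11, limma adjusted p = 0.000727), at 7.71 ± 0.06 against 7.02 ± 0.18 (SD, n = 3). BIM1, a gene for a partner of brassinosteroid transcription factors, was higher by 0.47 (SE 0.12, limma adjusted p = 0.0243), and PRA1.B6, of a family that acts in vesicle traffic, by 0.85 (SE 0.19, limma adjusted p = 0.0119). All 5 were also higher than control under whole FR, by 1.45, 1.77, 1.49, 0.83 and 2.17.

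Of the genes that were lower, some have known roles in sulphur assimilation. APS3, which codes for ATP sulfurylase, had a difference of -0.996 (SE 0.25, limma adjusted p = 0.0238), SIR, which codes for sulfite reductase, -0.58 (SE 0.13, limma adjusted p = 0.0120), and CBL, which codes for cystathionine beta-lyase of methionine synthesis, -0.54 (SE 0.12, limma adjusted p = 0.0142). The methionine sulfoxide reductase gene MSRB4 had -1.09 and UGT74B1, of glucosinolate synthesis, -0.83. Under whole FR these 5 fell by 1.69, 1.46, 1.22, 2.44 and 2.25. MGL and HMT-1, described above, also act on sulphur amino acids and were higher, and how many such genes were measured was not counted.

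A few called genes act in starch metabolism or the chloroplast, while of the 25 light harvesting and photosystem probe sets described above only 1 was called. Beside AMY1, the starch genes APL3 and PWD, the second for phosphoglucan, water dikinase, had differences of -1.15 and -0.59, and the chloroplast NDH subunit genes NdhN and NdhL had -1.17 and -0.73. The vacuolar processing enzyme genes GAMMA-VPE and BETA-VPE had -1.13 and -0.90, with no call under whole FR (limma adjusted p = 0.215 and 0.438). NdhN and NdhL were higher in the control tip than in the control base by 2.53 and 2.38, so for them light and the position of the cut cannot be told apart. Genes whose symbol begins with UGT, the glycosyltransferases, numbered 56, of which 5 were called lower (UGT72E1, UGT85A7, UGT76E11, UGT84A4 and UGT74B1) and 0 higher, with a median of -0.09 over the 56. Over all probe sets 2.33% were called lower and 1.48% higher. UGT84A4 was dim, at 2.04 against 2.87, and close to the threshold (limma adjusted p = 0.0332).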
